A study of Homo sapiens with 6 samples.

Results

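A set of 10 genes of cytosolic nucleic acid sensing was followed in MOLM-13, an established human line of acute myeloid leukaemia. They were chosen by name, with earlier results of these data known. They were the RNA sensors DDX58, IFIH1, DHX58 and EIF2AK2, the DNA sensor IFI16, the adaptors MAVS and TMEM173, the kinase TBK1, and the transcription factors IRF3 and IRF7. All 10 were found among the 24878 genes of the table, and all 10 passed the filter on low counts. The control group was 2 libraries of cells with a control vector and no doxycycline. The KO-labelled groups were 2 libraries of cells with a doxycycline-inducible CaMK2D-KO vector after 3 days of doxycycline and 2 after 5 days. Vector and doxycycline differ from the controls at once and cannot be told apart. Neither clonal origin nor separate culture of the libraries is stated in the labels, so the p-values rest on a spread between libraries that may be purely technical.

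Cells detect viral or misplaced nucleic acid in the cytosol through an RNA pathway and a DNA pathway. In the RNA pathway, the RIG-I-like helicases bind double-stranded RNA and signal through MAVS on the mitochondrial surface. In the DNA pathway, cGAS makes a cyclic dinucleotide that activates STING, the product of TMEM173, on the endoplasmic reticulum. Both activate TBK1, which phosphorylates IRF3 and IRF7, and these switch on type I interferon genes. Secreted interferon acts through its receptor and JAK kinases and raises several of the sensors themselves.

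Total counts ranged from 15456770 to 21081298 per library. The targeted gene, CAMK2D, stood at 23.0 and 14.5 CPM (controls), 14.7 and 15.6 CPM (day 3), and 28.9 and 28.1 CPM (day 5), where CPM is the usual library-size scaling of counts with TMM factors. Its log2 fold changes were -0.30 ± 0.23 at day 3 (SE; edgeR adjusted p = 0.437) and 0.61 ± 0.23 at day 5 (SE; edgeR adjusted p = 0.118), so its mRNA passed the threshold at neither day. The summed CPM of 12 myeloid markers was 2650.2 and 3234 (controls), 929 and 1053 (day 3) and 876 and 1137 (day 5), with 4 of the 11 tested lower at each day. None of the 11 passed as higher, and their median log2 fold change was -1.27 at day 3 and -0.79 at day 5. Over all tested genes 11.7% and 14.5% passed in either direction. CD33 did not follow this fall and stood between 47.5 and 55.8 CPM, and CD68 was at 0 counts in 5 of the 6 libraries. Lymphoid markers, of which 3 of 8 were in the table, summed to 4.24 and 4.93 CPM in the controls and at most 0.769 in a KO-labelled library. Plasmacytoid dendritic cell markers summed to at most 1.05 CPM in any library. The part of these marker differences in the results below was not tested. In bulk RNA, fewer cells making a transcript and less of it per cell cannot be told apart.

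Levels were compared between the 10 genes as FPKM, which corrects for gene length. In the controls TMEM173 was the highest, at 104 ± 12.0 FPKM (SD, n = 2), followed by MAVS at 16.9 ± 0.620, IRF3 at 12.0 ± 0.201 and IRF7 at 8.46 ± 0.118. IFI16 (7.82 ± 1.85 FPKM) overlapped both IRF7 above it and TBK1 (6.57 ± 0.877) below it. The RNA sensors were the lowest, with EIF2AK2 at 4.22 ± 0.315 FPKM, DDX58 at 2.46 ± 0.455, IFIH1 at 1.69 ± 0.390 and DHX58 at 0.488 ± 0.0952, and none of these overlapped its neighbour. Control cells thus held the adaptor mRNAs at higher FPKM than the RNA sensors. TMEM173 was still first at day 3 and day 5, at 82.6 ± 10.4 and 80.3 ± 4.65 FPKM, and overlapped no other of the 10 genes. DHX58 stood at 4.40 ± 1.69 FPKM at day 3 and 3.14 ± 1.67 at day 5, where its libraries overlapped those of DDX58. Of the 9 pairs of neighbours in the order, 7 of the control group, 3 of day 3 and 1 of day 5 did not overlap.

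**Figure D1:**
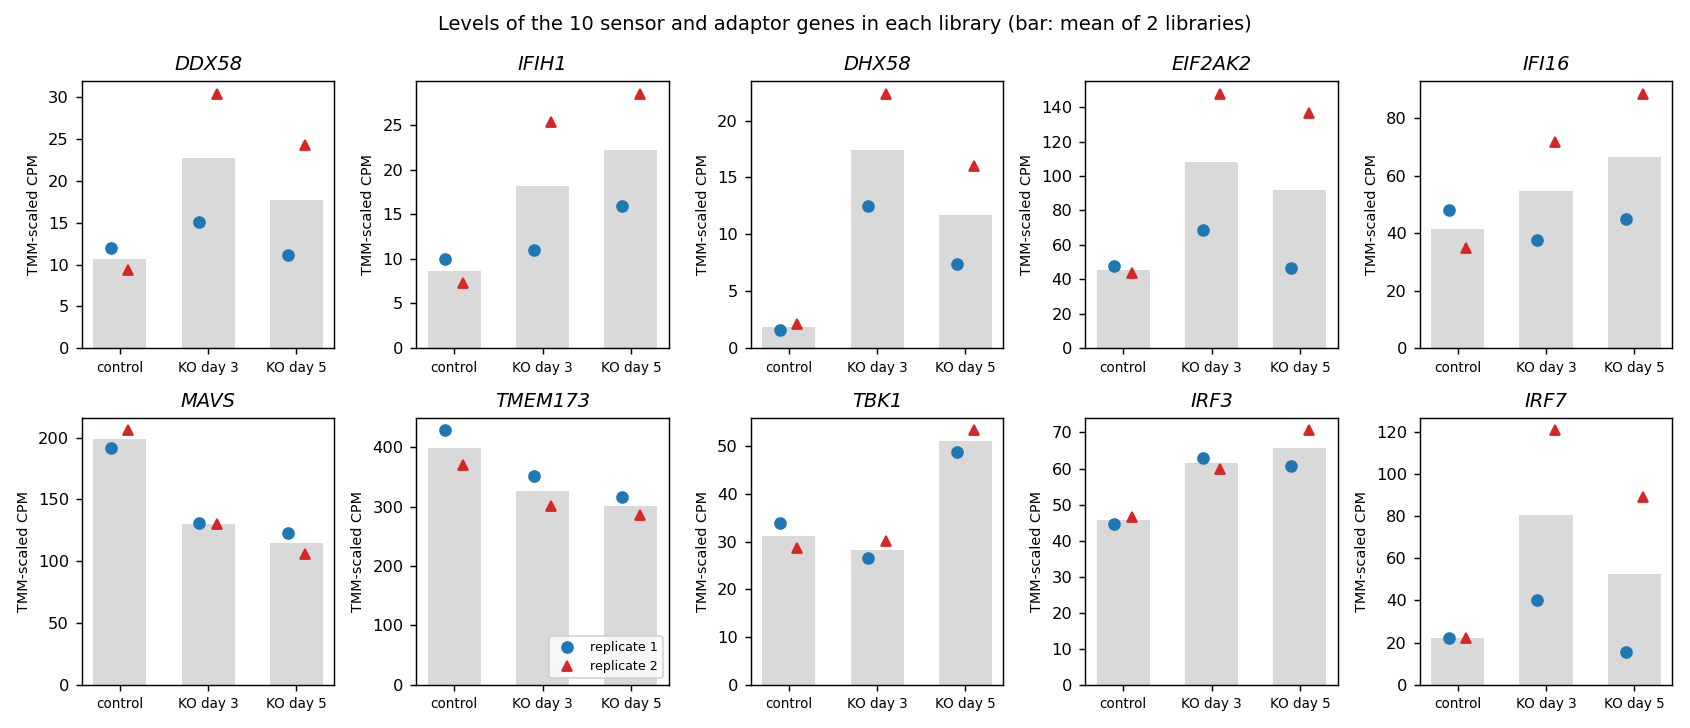
TMM-scaled CPM (y axis, from 0) of the 10 sensor and adaptor genes in the control, KO day 3 and KO day 5 groups (x axis); the markers tell replicate 1 from replicate 2 and the bars give the mean of 2 libraries. The libraries of a KO-labelled group lie far apart for DDX58, IFIH1, DHX58, EIF2AK2, IFI16 and IRF7, with replicate 2 higher, and closer together for MAVS, TMEM173, TBK1 and IRF3.

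At day 3, DHX58 rose and MAVS fell, and at day 5 DHX58, TBK1 and IRF3 rose and MAVS fell. Of the 10 genes, 2 passed the edgeR threshold (Benjamini-Hochberg adjusted p below 0.05) at day 3, against 11.7% of the 14601 genes tested. At day 5, 4 passed it, against 14.5% of all genes. The median log2 fold change of the 10 was 0.75 at day 3 and 0.72 at day 5, and that of all tested genes -0.00012 and 0.015. Groups did not overlap in CPM for 8 of the 10 genes at day 3, against 60.4% of all genes, and for 6 at day 5, against 58.1%. Both comparisons share the 2 controls, and the 10 genes were chosen with earlier results of these data known. With the replicate number as a block, 3 of the 10 passed at day 3 against 27.8% of all genes, and 6 at day 5 against 30.3%. The blocked count at day 3 and the groups that did not overlap at day 5 were near the share of all genes, and nothing about the 10 genes is read from them.

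**Figure D2:**
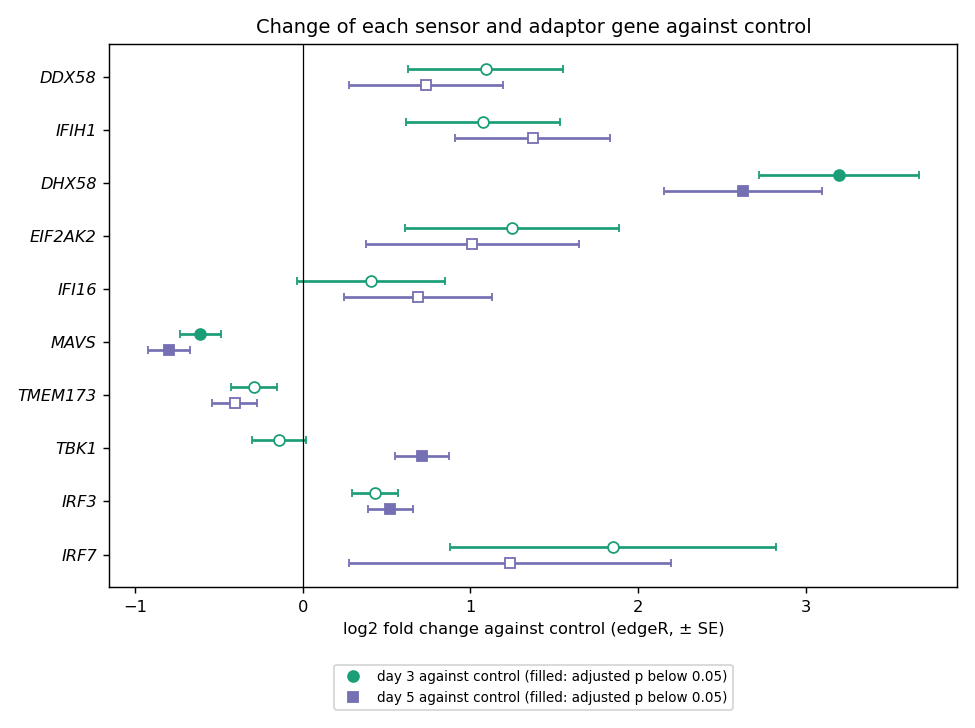
Log2 fold change against control (x axis, edgeR, bars ± SE) of each gene (y axis) at day 3 and day 5; filled symbols passed the threshold. DHX58 and MAVS are filled at both days, TBK1 and IRF3 at day 5, and the widest bars belong to IRF7.

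DHX58 encodes LGP2, a RIG-I-like helicase without signalling domains that modulates its relatives (chromosome 17, 42101404 to 42112733, minus strand; GRCh38, GENCODE 29, as for the other genes below). It stood at 1.60 and 2.15 CPM (controls), 12.5 and 22.4 CPM (day 3), and 7.41 and 16.0 CPM (day 5), the control values resting on 25 and 45 counts. All 4 KO-labelled libraries were above both controls. DHX58 rose 9.17-fold at day 3 (log2 fold change 3.20 ± 0.48 SE, edgeR adjusted p = 0.00892) and 6.17-fold at day 5 (log2 fold change 2.62 ± 0.47 SE, edgeR adjusted p = 0.0136). Between libraries of the same replicate number, the ratio to control was 7.79 and 10.4 at day 3 and 4.62 and 7.42 at day 5. Without control replicate 1 the edgeR adjusted p was 0.0583 at day 3 and 0.0795 at day 5, and without control replicate 2 it was 0.0515 at day 5. The log2 fold changes were then 3.01, 2.43 and 2.83. The day 5 value of DHX58 was 1.96 without KO day 5 replicate 2.

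DDX58 encodes RIG-I, the helicase that recognises triphosphate ends of double-stranded RNA (chromosome 9, 32455705 to 32526324, minus strand). It stood at 12.0 and 9.39 CPM (controls), 15.1 and 30.4 CPM (day 3), and 11.2 and 24.3 CPM (day 5). Both day 3 libraries were above both controls, while at day 5 replicate 1 lay between them. DDX58 did not pass the threshold, with log2 fold changes of 1.09 ± 0.46 at day 3 (SE; edgeR adjusted p = 0.178) and 0.74 ± 0.46 at day 5 (SE; edgeR adjusted p = 0.333). IFIH1 encodes MDA5, the helicase that binds long double-stranded RNA (chromosome 2, 162267079 to 162318703, minus strand). It stood at 9.95 and 7.28 CPM (controls), 11.0 and 25.3 CPM (day 3), and 15.9 and 28.5 CPM (day 5). All 4 KO-labelled libraries were above both controls, and replicate 2 was the higher at each day. The log2 fold changes of IFIH1 were 1.08 ± 0.46 at day 3 (SE; edgeR adjusted p = 0.179) and 1.37 ± 0.46 at day 5 (SE; edgeR adjusted p = 0.0980). Replicate 2 over replicate 1 of IFIH1 was 0.732 in the controls but 2.30 and 1.79 at day 3 and day 5. A block shared by all groups cannot follow both directions. With the replicate number as such a block, IFIH1 passed the threshold at day 5 (1.29, edgeR adjusted p = 0.0389). It also passed at day 5 with either KO day 3 library left out (edgeR adjusted p = 0.0381 and 0.0383) and by DESeq2 (adjusted p = 0.0126). Replicate 2 carried much of both differences: without KO day 3 replicate 2 the day 3 value was 0.52 for DDX58 and 0.37 for IFIH1, and without KO day 5 replicate 2 the day 5 value was 0.068 for DDX58 and 0.89 for IFIH1.

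EIF2AK2 encodes PKR, the kinase that binds double-stranded RNA and phosphorylates eIF2 alpha to slow translation (chromosome 2, 37099210 to 37157065, minus strand). It stood at 47.4 and 43.4 CPM (controls), 68.5 and 148 CPM (day 3), and 46.5 and 137 CPM (day 5). Replicate 2 was high at both days, whereas day 5 replicate 1 lay between the controls. The log2 fold changes of EIF2AK2 were 1.25 ± 0.64 at day 3 (SE; edgeR adjusted p = 0.281) and 1.01 ± 0.64 at day 5 (SE; edgeR adjusted p = 0.360). Without KO day 3 replicate 2 the day 3 value was 0.61, and without KO day 5 replicate 2 the day 5 value was 0.035. IFI16 is a PYHIN protein that binds DNA in the nucleus and cytosol (chromosome 1, 158999968 to 159055155, plus strand). It stood at 47.9 and 34.8 CPM (controls), 37.8 and 71.8 CPM (day 3), and 44.8 and 88.5 CPM (day 5). Replicate 1 at both days lay within the range of the controls, and replicate 2 lay above it. The log2 fold changes of IFI16 were 0.41 ± 0.44 at day 3 (SE; edgeR adjusted p = 0.601) and 0.69 ± 0.44 at day 5 (SE; edgeR adjusted p = 0.354). Leaving out KO day 3 replicate 2 turned the day 3 value of IFI16 to -0.11.

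Promoter sequences were taken from RefSeq (GRCh38.p14), whose table matched 6 of the 10 genes: DDX58, IFIH1, EIF2AK2, IFI16, MAVS and TBK1. Those of IFIH1, EIF2AK2 and DDX58, which stood higher in replicate 2 of the KO-labelled groups, are shown beside that of MAVS, which did not. The motif searched on both strands was GAAA, any 2 bases, and GAAA again, the core of the interferon-stimulated response element that factors such as STAT2 and IRF9 bind, and matches are in capitals. Each stretch covers the 250 bases before the start site, and that of EIF2AK2 goes 4 bases past it to hold its match.
IFIH1, chr2:162318685-162318934, minus strand: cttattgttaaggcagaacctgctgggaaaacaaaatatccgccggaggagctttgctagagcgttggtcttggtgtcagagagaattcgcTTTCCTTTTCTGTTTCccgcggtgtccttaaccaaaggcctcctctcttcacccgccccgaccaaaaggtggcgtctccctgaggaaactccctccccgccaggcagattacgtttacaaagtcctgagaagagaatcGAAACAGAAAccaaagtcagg
EIF2AK2, chr2:37156977-37157230, minus strand: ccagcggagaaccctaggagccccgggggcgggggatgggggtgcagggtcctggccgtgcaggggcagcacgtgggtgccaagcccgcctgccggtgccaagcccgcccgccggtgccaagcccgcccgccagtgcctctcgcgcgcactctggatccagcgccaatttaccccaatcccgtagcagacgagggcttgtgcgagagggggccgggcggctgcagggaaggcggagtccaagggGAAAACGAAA
DDX58, chr9:32526197-32526446, minus strand: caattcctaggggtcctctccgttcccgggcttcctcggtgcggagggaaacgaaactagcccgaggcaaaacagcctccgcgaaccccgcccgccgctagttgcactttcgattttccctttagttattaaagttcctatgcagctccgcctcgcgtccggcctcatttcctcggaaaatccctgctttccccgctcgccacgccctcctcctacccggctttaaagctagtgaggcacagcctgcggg
MAVS, chr20:3846584-3846833, plus strand: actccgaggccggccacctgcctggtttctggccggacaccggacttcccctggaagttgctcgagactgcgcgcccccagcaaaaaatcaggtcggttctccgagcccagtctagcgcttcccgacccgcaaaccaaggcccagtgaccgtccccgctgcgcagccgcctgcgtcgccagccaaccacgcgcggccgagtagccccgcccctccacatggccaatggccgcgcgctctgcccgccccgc
The IFIH1 window held 3 matches, 1 on the gene's strand from 21 to 12 bases before the start and 2 on the opposite strand that overlap each other, between 159 and 144 bases before it. The EIF2AK2 window held 1 match, across the start site. DDX58, IFI16, MAVS and TBK1 had no match to these letters in the window of 250 bases before and 50 after the start. None of the 6 matched TTCNNNGAA, the gamma-activated site. This element core occurred in 3.57% and TTCNNNGAA in 7.66% of all 35116 such windows. Of the interferon-stimulated effector genes described further on, 19 of the 24 with a window held the element core, and 8 of the 69 other pathway genes with one. These counts are per gene with a match in any of its windows, and some genes have several. The percentages are per window, so the 2 are not like for like.

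MAVS, the mitochondrial adaptor of RIG-I and MDA5 (chromosome 20, 3846799 to 3876123, plus strand), stood at 192 and 206 CPM (controls), 131 and 129.8 CPM (day 3), and 123 and 106 CPM (day 5). Every KO-labelled library was below both controls, and both day 5 libraries were below both day 3 libraries. MAVS fell at day 3 (log2 fold change -0.61 ± 0.12 SE, edgeR adjusted p = 0.0208) and at day 5 (log2 fold change -0.80 ± 0.12 SE, edgeR adjusted p = 0.00707). MAVS lost its day 3 call without either KO day 3 library (edgeR adjusted p = 0.150 and 0.164), with log2 fold changes of -0.61 to -0.59. MAVS lost its day 5 call without KO day 5 replicate 2 (edgeR adjusted p = 0.0518), with a log2 fold change of -0.69. TMEM173 encodes STING, the adaptor of the DNA pathway (chromosome 5, 139475534 to 139482935, minus strand), and stood at 428 and 369.8 CPM (controls), 351 and 301 CPM (day 3), and 317 and 285 CPM (day 5). Again all KO-labelled libraries were below both controls. TMEM173 did not pass the threshold, with log2 fold changes of -0.29 ± 0.14 at day 3 (SE; edgeR adjusted p = 0.203) and -0.41 ± 0.14 at day 5 (SE; edgeR adjusted p = 0.0856). At day 5 it passed with the replicate number as a block (-0.40, edgeR adjusted p = 0.0103), without control replicate 2 (-0.54, edgeR adjusted p = 0.0437) and by DESeq2 (-0.43, adjusted p = 0.0465).

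TBK1, the kinase shared by both pathways (chromosome 12, 64451880 to 64502108, plus strand), stood at 33.9 and 28.6 CPM (controls), 26.6 and 30.2 CPM (day 3), and 48.9 and 53.3 CPM (day 5). The day 3 libraries overlapped the controls, and the day 5 libraries stood above the other 4. The log2 fold change of TBK1 was -0.14 ± 0.16 at day 3 (SE; edgeR adjusted p = 0.614), and TBK1 rose at day 5 (log2 fold change 0.71 ± 0.16 SE, edgeR adjusted p = 0.0256). Day 5 against day 3 gave 0.85 ± 0.16 (SE; edgeR adjusted p = 0.162), in a comparison where 0.0274% of all genes passed the threshold. That difference passed with the replicate number as a block (0.85, edgeR adjusted p = 0.00324), as did 7.65% of all genes. By DESeq2, which called 306 genes over the whole table, it also passed (0.83, adjusted p = 0.00651). TBK1 lost its day 5 call without control replicate 2, either KO day 3 library, or either KO day 5 library (edgeR adjusted p = 0.0838, 0.0547, 0.0555, 0.0745 and 0.123), with log2 fold changes of 0.56 to 0.76. The call was also lost when only the 4 libraries compared were fitted (edgeR adjusted p = 0.0566). An antisense gene shares 702 exon bases with TBK1, and the counts are not stated to use strand.

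IRF3 is the factor, present before infection, that TBK1 phosphorylates (chromosome 19, 49659569 to 49665875, minus strand). It stood at 44.7 and 46.5 CPM (controls), 63.0 and 59.9 CPM (day 3), and 60.6 and 70.6 CPM (day 5). All KO-labelled libraries were above both controls. The log2 fold change of IRF3 was 0.43 ± 0.14 at day 3 (SE; edgeR adjusted p = 0.0810), which passed with the replicate number as a block (0.43, edgeR adjusted p = 0.0205). At day 5 IRF3 rose (log2 fold change 0.52 ± 0.14 SE, edgeR adjusted p = 0.0392). IRF3 lost its day 5 call without either control library, either KO day 3 library, or either KO day 5 library (edgeR adjusted p = 0.0932, 0.0700, 0.103, 0.0998, 0.0754 and 0.207), with log2 fold changes of 0.41 to 0.62. The call was also lost with only the 4 libraries compared (edgeR adjusted p = 0.0967). IRF3 shares 734 exon bases with BCL2L12 on the opposite strand, and unless the counting used strand, which is not stated, their reads cannot be told apart there.

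IRF7 is the interferon-induced factor that amplifies type I interferon (chromosome 11, 612553 to 615999, minus strand). It stood at 22.3 and 22.2 CPM (controls), 40.1 and 121 CPM (day 3), and 15.7 and 89.1 CPM (day 5). Both day 3 libraries were above the controls, whereas at day 5 replicate 1 was below and replicate 2 above. IRF7 did not pass the threshold, with log2 fold changes of 1.85 ± 0.97 at day 3 (SE; edgeR adjusted p = 0.293) and 1.24 ± 0.96 at day 5 (SE; edgeR adjusted p = 0.458). Without KO day 3 replicate 2 its day 3 value was 0.87, and without KO day 5 replicate 2 its day 5 value turned to -0.51. Of the 10 genes, IRF7 had the closest controls and the widest KO-labelled pairs.

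Between day 3 and day 5, 0 of the 10 genes passed the edgeR threshold. An unadjusted edgeR p below 0.05 was found for 1 of them, TBK1, and for 2206 of the 14601 genes tested. DESeq2 and the fit with the replicate number as a block each called 1, TBK1, and over all genes they called 306 and 1117. The log2 values of day 5 against day 3 for the other 9 genes ran from -0.62 for IRF7 to 0.29 for IFIH1. Of these 9, MAVS alone had groups that did not overlap, and its difference of -0.19 (SE 0.12, edgeR adjusted p = 0.515) did not pass.

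For 6 of the 10 genes, replicate 2 stood well above replicate 1 in both KO-labelled groups. These 6 were picked from the values without a set cutoff, so no share of all genes stands beside that count. The ratio of replicate 2 to replicate 1 in CPM was 3.01 and 5.69 at day 3 and day 5 for IRF7, and 2.16 and 2.94 for EIF2AK2. It was 2.01 and 2.17 for DDX58, 2.30 and 1.79 for IFIH1, 1.79 and 2.16 for DHX58 and 1.90 and 1.97 for IFI16. In the controls the ratio was 0.998 for IRF7, 0.916 for EIF2AK2, 0.782 for DDX58, 0.732 for IFIH1, 1.34 for DHX58 and 0.726 for IFI16. The control libraries thus stood in this order for DHX58 alone of the 6. MAVS, TMEM173, TBK1 and IRF3 had ratios of 0.858 to 1.16 in the KO-labelled groups. A ratio of at least 2 at both days was found for 3 of the 10 genes, DDX58, EIF2AK2 and IRF7, and for 3.05% of all tested genes.

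**Figure D3:**
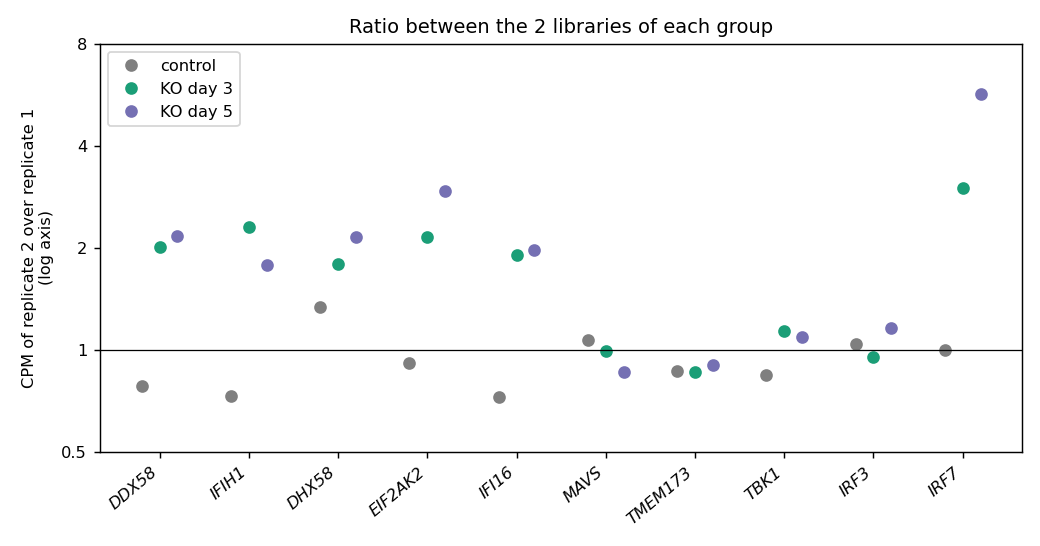
CPM of replicate 2 divided by that of replicate 1 (log axis) for each of the 10 genes in the controls, KO day 3 and KO day 5. The RNA sensors, IFI16 and IRF7 lie at 1.79 to 5.69 in both KO-labelled groups, and MAVS, TMEM173, TBK1 and IRF3 near 1 in all 3 groups.

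This difference was tested with a term for replicate 2 among the 4 KO-labelled libraries, chosen after the values were seen. EIF2AK2 (log2 difference 1.33 ± 0.16 SE, edgeR adjusted p = 0.00474) and IRF7 (log2 difference 2.04 ± 0.22 SE, edgeR adjusted p = 0.00370) passed, 2 of the 10 genes, against 0.26% of all genes. DDX58, IFIH1, DHX58 and IFI16 had differences of 0.95 to 1.06 with edgeR adjusted p of 0.0904 to 0.258. Of all 14601 genes 38 passed, all of them higher in replicate 2 (293 higher and 149 lower with no filter), and 14 of those were among 29 interferon-stimulated effector genes. The labels give no batch or culture for the replicate numbers, and what distinguishes these libraries was not tested. The median log2 difference of the 10 genes from the control of the same number was 0.23 in replicate 1 and 1.34 in replicate 2 at day 3, and -0.061 and 1.33 at day 5. Over all tested genes these medians lay between -0.0076 and 0.021.

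The genes whose profile over the 6 libraries came closest were found for the 6 members that spanned more than 1 on the log2 scale. The measure was the root mean square distance between centred log2(CPM + 0.5) values, over 10982 genes. For DDX58 the nearest was HELZ2 (distance 0.092), then EIF2AK2, HERC5, PNPLA1 and DDX60L. HELZ2, a helicase, stood at 105 and 81.4 CPM (controls), 113 and 225 CPM (day 3), and 83.7 and 186 CPM (day 5). EIF2AK2 came closest to HERC5 (distance 0.15), then DDX58, HELZ2 and LGALS3BP. The nearest to IRF7 was LGALS3BP (distance 0.29), then PARP9, CMPK2 and REC8. The nearest to DHX58 was DDX60 (distance 0.32), then IFIT5, PECR, SAMD9L and MT1G. Several of these, such as HERC5, DDX60, IFIT5 and CMPK2, are known interferon-stimulated genes. IFIH1 came closest to SAMD9 (distance 0.16), then MT1F, PCDH12, PNPLA1 and TRIM69, and IFI16 to ETFRF1 (distance 0.16), then MINOS1, PNPLA1, PARP14 and LRRC7.

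The interferon genes that this pathway switches on were barely detected. Of 20 listed, 3 were in the table. IFNB1 had 3 and 4 counts at day 3 and 0 in the other 4 libraries, IFNA2 had 1 count in KO day 3 replicate 2 and 5 in KO day 5 replicate 2, and IFNW1 had 7 in KO day 3 replicate 1. With 3 counts as the limit that a count of 0 allows (counting error only), the shallowest library allows 0.194 CPM, and none of the 3 was tested. Of 8 interferon receptor and kinase genes tested, 2 fell at day 3 and 1 rose at day 5, against 11.7% and 14.5% of all genes. JAK1 (log2 fold change -0.56 ± 0.15 SE, edgeR adjusted p = 0.0456) and TYK2 (-0.58 ± 0.13 SE, edgeR adjusted p = 0.0269), kinases of the type I receptor, fell at day 3, and JAK2, a kinase of the type II receptor, rose at day 5 (0.999 ± 0.21 SE, edgeR adjusted p = 0.0189). With the replicate number as a block there were 0 higher and 4 lower calls at day 3 and 1 higher and 2 lower at day 5. Of all genes, 27.8% and 30.3% passed in that fit. The receptor chains IFNAR1, IFNGR1 and IFNGR2 had values of -0.15, -0.36 and -0.49 at day 3 and -0.014, -0.0078 and -0.56 at day 5 without passing. IFNGR1 passed at day 3 (-0.37, edgeR adjusted p = 0.0286), IFNGR2 passed at day 3 (-0.50, edgeR adjusted p = 0.0389), IFNGR2 passed at day 5 (-0.55, edgeR adjusted p = 0.0225) and TYK2 passed at day 5 (-0.38, edgeR adjusted p = 0.0144) in the fit with the replicate number as a block. JAK1 lost its day 3 call without control replicate 1, either KO day 3 library, or either KO day 5 library (edgeR adjusted p = 0.148, 0.216, 0.235, 0.0657 and 0.0656), with log2 fold changes of -0.55 to -0.36. TYK2 lost its day 3 call without either KO day 3 library (edgeR adjusted p = 0.183 and 0.169), with log2 fold changes of -0.58 to -0.55. JAK2 lost its day 5 call without control replicate 2, or either KO day 5 library (edgeR adjusted p = 0.0655, 0.0556 and 0.0921), with log2 fold changes of 0.90 to 1.06.

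Among other sensors, DDX60, a helicase reported to assist RIG-I, rose and CGAS, the DNA sensor upstream of STING, fell. DDX60 stood at 5.58 and 4.45 CPM (controls), 21.5 and 46.5 CPM (day 3), and 19.3 and 49.4 CPM (day 5) (log2 fold changes 2.76 and 2.78, edgeR adjusted p = 0.0434 and 0.0372). CGAS stood at 80.7 and 92.1 CPM (controls), 65.8 and 86.1 CPM (day 3), and 48.1 and 60.1 CPM (day 5) (log2 fold change at day 5 -0.68 ± 0.18 SE, edgeR adjusted p = 0.0405). Of 10 tested genes of that list, 1 rose at day 3, and 1 rose and 1 fell at day 5. Those counts were near the 11.7% and 14.5% of all genes that passed, and nothing about the list is read from them. With the replicate number as a block the calls were 2 higher and 2 lower, and 1 higher and 2 lower. In that fit 27.8% and 30.3% of all genes passed. DHX9, DHX15 and PRKDC, the most highly counted of the rest, had log2 fold changes between -0.49 and -0.11. DHX15 passed at day 3 (-0.31, edgeR adjusted p = 0.0467) and DHX9 passed at day 5 (-0.49, edgeR adjusted p = 0.00541) in the fit with the replicate number as a block. DDX60 lost its day 3 call without either control library, or either KO day 3 library (edgeR adjusted p = 0.273, 0.262, 0.0530 and 0.116), with log2 fold changes of 2.12 to 3.22. The day 3 value of DDX60 was 2.12 without KO day 3 replicate 2. DDX60 lost its day 5 call without either control library, or KO day 5 replicate 2 (edgeR adjusted p = 0.240, 0.264 and 0.0704), with log2 fold changes of 1.95 to 2.94. The day 5 value of DDX60 was 1.95 without KO day 5 replicate 2. CGAS lost its day 5 call without control replicate 2, or either KO day 5 library (edgeR adjusted p = 0.0886, 0.162 and 0.0694), with log2 fold changes of -0.85 to -0.54.

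MNDA, a PYHIN relative of IFI16 made in myeloid cells, fell at both days. It stood at 45.3 and 30.8 CPM (controls), 4.01 and 5.38 CPM (day 3), and 6.62 and 2.62 CPM (day 5) (log2 fold changes -3.02 and -3.04, edgeR adjusted p = 0.00965 and 0.00775). AIM2, the inflammasome sensor of that family, had at most 6 counts in any library. Of 3 other eIF2 alpha kinases, EIF2AK3, known as PERK, rose at both days (log2 fold changes 1.23 and 0.98, edgeR adjusted p = 0.0143 and 0.0252). EIF2AK1 and EIF2AK4 had values between -0.20 and -0.056. Over all tested genes 11.7% passed at day 3 and 14.5% at day 5, and nothing about the 3 kinases as a list is read from this. MNDA lost its day 3 call without either KO day 3 library (edgeR adjusted p = 0.0747 and 0.0611), with log2 fold changes of -3.23 to -2.81. The day 5 value of MNDA was -3.87 without KO day 5 replicate 1. EIF2AK3 lost its day 3 call without either KO day 3 library (edgeR adjusted p = 0.0947 and 0.0704), with log2 fold changes of 1.18 to 1.30. EIF2AK3 lost its day 5 call without control replicate 2, either KO day 3 library, or either KO day 5 library (edgeR adjusted p = 0.0950, 0.0587, 0.0555, 0.11 and 0.0561), with log2 fold changes of 0.81 to 1.11. An antisense gene shares 781 of the 5434 exon bases of EIF2AK3.

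Of the cofactors, 1 was called at each day, lower in both cases. Of the restraints, 2 were called at day 3, near the share of all genes, and 1 at day 5. Over all tested genes 11.7% passed at day 3 and 14.5% at day 5. Of 17 cofactors, 0 rose at either day in edgeR, DESeq2 or limma on log2(FPKM + 1). At an unadjusted edgeR p below 0.05, 1 was higher and 1 lower at day 3, and 2 higher and 5 lower at day 5. Over all 14601 tested genes 4223 and 4504 were below that p. TANK, a TBK1-binding scaffold, fell at day 3 (log2 fold change -0.75 ± 0.18 SE, edgeR adjusted p = 0.0348), and TRIM4, a ubiquitin ligase for RIG-I, fell at day 5 (-0.71 ± 0.14 SE, edgeR adjusted p = 0.0153). TRIM25, ZC3HAV1 and TRIM56, the most highly counted of the others, had values between -0.30 and 0.38. ZC3HAV1 passed at day 3 (0.38, edgeR adjusted p = 0.0341) and ZC3HAV1 passed at day 5 (0.39, edgeR adjusted p = 0.0287) in the fit with the replicate number as a block. Of 16 nucleases, editors and inhibitors, PNPT1, a mitochondrial RNA exonuclease, rose at day 3 (0.68 ± 0.17 SE, edgeR adjusted p = 0.0416) and CYLD, a deubiquitinase, fell (-0.75 ± 0.14 SE, edgeR adjusted p = 0.0169). TNFAIP3, the NF-kB inhibitor A20, fell at day 5 (-0.74 ± 0.17 SE, edgeR adjusted p = 0.0263). ADAR, SAMHD1 and RNASEH2B had values of 0.47, 0.0033 and -0.024 at day 3 and 0.087, -0.73 and 0.17 at day 5 without passing, and ADAR at day 3 (0.45, edgeR adjusted p = 0.0270) and PNPT1 at day 5 (0.48, edgeR adjusted p = 0.0226) passed with the replicate number as a block. In that fit cofactor calls were 1 higher and 1 lower at day 3 and 2 higher and 4 lower at day 5. Restraint calls were 4 higher and 3 lower at day 3 and 2 higher and 3 lower at day 5. Of all genes, 27.8% and 30.3% passed in that fit. TANK lost its day 3 call without control replicate 1, either KO day 3 library, or either KO day 5 library (edgeR adjusted p = 0.143, 0.134, 0.237, 0.0513 and 0.0513), with log2 fold changes of -0.84 to -0.56. TRIM4 lost its day 5 call without either KO day 5 library (edgeR adjusted p = 0.0579 and 0.0877), with log2 fold changes of -0.76 to -0.67. PNPT1 lost its day 3 call without control replicate 2, either KO day 3 library, or either KO day 5 library (edgeR adjusted p = 0.0941, 0.0720, 0.251, 0.0559 and 0.0562), with log2 fold changes of 0.50 to 0.86. CYLD lost its day 3 call without either KO day 3 library (edgeR adjusted p = 0.126 and 0.127), with log2 fold changes of -0.74 to -0.73. TNFAIP3 lost its day 5 call without control replicate 1, or either KO day 5 library (edgeR adjusted p = 0.0630, 0.113 and 0.0787), with log2 fold changes of -0.83 to -0.50.

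Among 8 other transcription factors, 0 passed in edgeR at day 3, against 11.7% of all genes. At an unadjusted edgeR p below 0.05 there were 0 higher and 2 lower, against 4223 of all 14601 genes. DESeq2 called 1 lower and limma on log2(FPKM + 1) called 0. Nothing about the list is read from these counts. At day 5, when 14.5% of all genes passed, IRF1 rose (log2 fold change 0.75 ± 0.20 SE, edgeR adjusted p = 0.0399) and NFKB1 fell (-0.62 ± 0.13 SE, edgeR adjusted p = 0.0203). STAT2, which acts with IRF9 in the interferon response, stood at 52.4 and 59.7 CPM (controls), 61.7 and 113 CPM (day 3), and 62.3 and 106 CPM (day 5). Its log2 fold changes of 0.64 and 0.58 did not pass (edgeR adjusted p = 0.291 and 0.323), and passed with the replicate number as a block (0.58 and 0.53, edgeR adjusted p = 0.0102 and 0.0153). IRF8 and RELA had values of 0.37 and 0.0100 at day 3 and -0.055 and -0.19 at day 5. NFKB1 passed at day 3 (-0.38, edgeR adjusted p = 0.0235) and IRF8 passed at day 3 (0.36, edgeR adjusted p = 0.0283) in the fit with the replicate number as a block. Among 6 endosomal genes UNC93B1, which carries Toll-like receptors, fell at day 5 (-0.65 ± 0.16 SE, edgeR adjusted p = 0.0321), and MYD88, IRAK1 and IRAK4 had values between -0.049 and 0.36. With the replicate number as a block, transcription factor calls were 2 higher and 3 lower at day 3 and 2 higher and 2 lower at day 5. Endosomal calls were 0 higher and 1 lower at day 3 and 0 higher and 2 lower at day 5. Of all genes, 27.8% and 30.3% passed in that fit. IRF1 lost its day 5 call without control replicate 1, either KO day 3 library, or KO day 5 replicate 2 (edgeR adjusted p = 0.124, 0.0742, 0.0742 and 0.212), with log2 fold changes of 0.50 to 0.72. NFKB1 lost its day 5 call without either KO day 5 library (edgeR adjusted p = 0.0579 and 0.120), with log2 fold changes of -0.72 to -0.54. UNC93B1 lost its day 5 call without control replicate 1, or either KO day 5 library (edgeR adjusted p = 0.0844, 0.123 and 0.101), with log2 fold changes of -0.71 to -0.51. IRF1 shares 1716 of its 7799 exon bases with C5orf56 on the opposite strand.

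Of the OAS genes, whose enzymes make a messenger oligonucleotide once double-stranded RNA is sensed, 0 of 3 passed in edgeR at either day, with 1 at day 3 and 0 at day 5 at an unadjusted p below 0.05. Over all tested genes 11.7% and 14.5% passed in edgeR, and 4223 and 4504 of 14601 had an unadjusted p below 0.05. DESeq2 called 2 higher at each day and limma on log2(FPKM + 1) called 0. DESeq2 was fitted to all genes with a count, and over these it called 2399 at day 3 and 2762 at day 5. OAS3 stood at 4.88 and 3.45 CPM (controls), 14.6 and 91.1 CPM (day 3), and 6.62 and 72.1 CPM (day 5). OAS2 stood at 0 and 0.479 CPM (controls), 22.8 and 273 CPM (day 3), and 4.64 and 168 CPM (day 5). For both, replicate 2 was the higher library at each day. OAS2 passed with the replicate number as a block at both days (edgeR adjusted p = 0.0100 and 0.0134). OAS1 stood at 2.37 and 1.87 CPM (controls), 16.6 and 63.8 CPM (day 3), and 4.81 and 39.7 CPM (day 5), and did not pass (log2 fold changes 4.25 and 3.40, edgeR adjusted p = 0.122 and 0.168).

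Interferon-stimulated effector genes were mostly highest in the libraries where the sensors were. Of 29 tested, 2 rose and 0 fell at day 3, IFIT2 (log2 fold change 4.58 ± 0.76 SE, edgeR adjusted p = 0.0268) and IFIT5 (3.00 ± 0.66 SE, edgeR adjusted p = 0.0343). At day 5 IFIT2 (4.16 ± 0.75 SE, edgeR adjusted p = 0.0287) and SAMD9 (1.59 ± 0.35 SE, edgeR adjusted p = 0.0257) rose, and CCL5, a chemokine, fell (-0.91 ± 0.23 SE, edgeR adjusted p = 0.0419). Over all tested genes 11.7% passed in edgeR at day 3 and 14.5% at day 5. The edgeR counts of the 29 were not above those shares. DESeq2 called 14 higher and 1 lower at day 3 and 10 higher and 2 lower at day 5, and over all genes 2399 and 2762. With the replicate number as a block, edgeR calls were 11 higher and 0 lower at day 3 and 8 higher and 3 lower at day 5. Of all genes, 27.8% and 30.3% passed in that fit. The median log2 fold change of the 29 was 1.77 at day 3 and 0.97 at day 5. KO day 3 replicate 2 was the highest of the 6 libraries for 20 of the 29 and KO day 5 replicate 2 for 7, while over all 14601 tested genes they were highest for 2357 and 2704. Against the control of the same number, the median log2 difference of the 29 was 0.57 in replicate 1 and 2.42 in replicate 2 at day 3, and 0.29 and 1.43 at day 5. IFIT2, which binds viral RNA, stood at 2.12 and 2.73 CPM (controls), 29.1 and 88.5 CPM (day 3), and 28.6 and 58.9 CPM (day 5). IFI6, PARP14 and BST2, the most highly counted of those not called, had log2 fold changes of 5.49, 0.72 and -0.035 at day 3 and 4.38, 0.91 and -0.41 at day 5. SAMD9 passed at day 3 (0.99, edgeR adjusted p = 0.0162), IFIT5 passed at day 5 (2.34, edgeR adjusted p = 0.00273) and BST2 passed at day 5 (-0.45, edgeR adjusted p = 0.0111) in the fit with the replicate number as a block. IFIT2 lost its day 3 call without either control library (edgeR adjusted p = 0.258 and 0.205), with log2 fold changes of 4.43 to 4.80. The day 3 value of IFIT2 was 5.19 without KO day 3 replicate 1 and 3.59 without KO day 3 replicate 2. IFIT2 lost its day 5 call without either control library, or either KO day 5 library (edgeR adjusted p = 0.254, 0.227, 0.0587 and 0.0888), with log2 fold changes of 3.55 to 4.57. The day 5 value of IFIT2 was 3.55 without KO day 5 replicate 2. IFIT5 lost its day 3 call without either control library, KO day 3 replicate 2, or either KO day 5 library (edgeR adjusted p = 0.204, 0.188, 0.0989, 0.0638 and 0.0571), with log2 fold changes of 1.75 to 3.12. The day 3 value of IFIT5 was 3.67 without KO day 3 replicate 1 and 1.75 without KO day 3 replicate 2. SAMD9 lost its day 5 call without either control library, or KO day 5 replicate 2 (edgeR adjusted p = 0.0573, 0.109 and 0.114), with log2 fold changes of 1.255 to 1.81. CCL5 lost its day 5 call without control replicate 1, either KO day 3 library, or either KO day 5 library (edgeR adjusted p = 0.0634, 0.0615, 0.0596, 0.166 and 0.134), with log2 fold changes of -0.996 to -0.48.

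**Figure D4:**
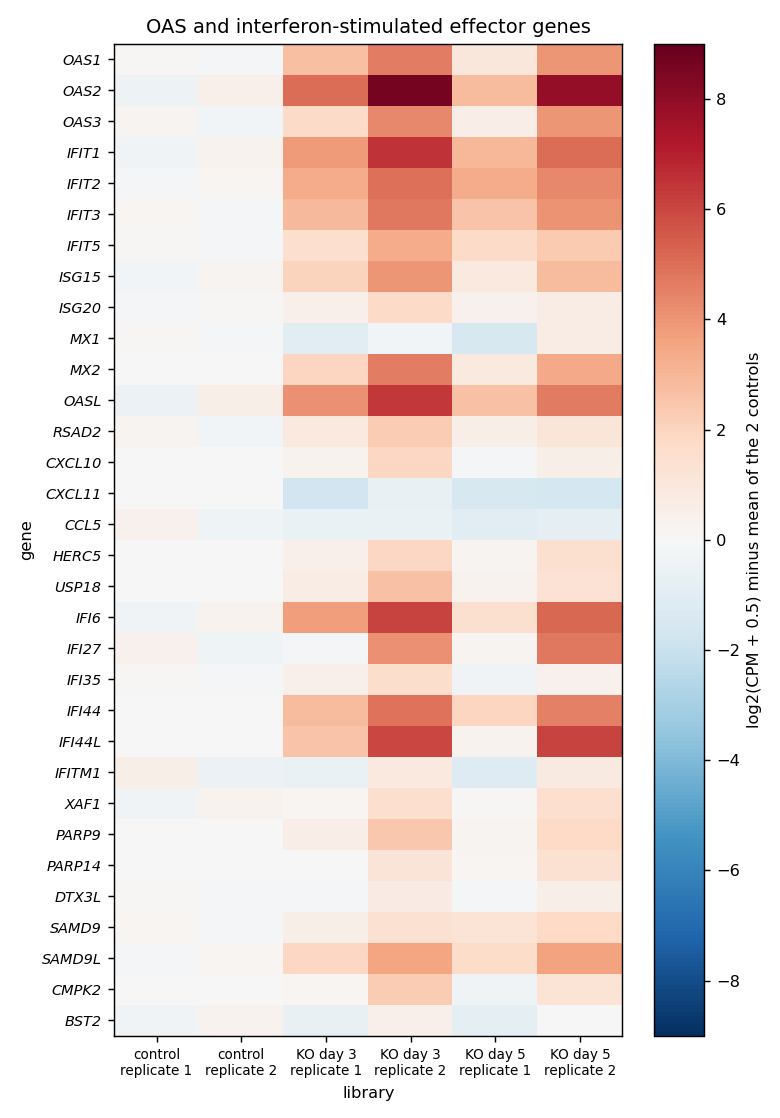
Log2(CPM + 0.5) minus the mean of the 2 controls (colour) of the 3 OAS genes and the 29 interferon-stimulated effector genes (rows) in the 6 libraries (columns). Replicate 2 of KO day 3 is the highest library for 20 of the 29 effector genes, and replicate 2 of KO day 5 for 7.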

How the data were processed

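RNA-seq of 6 libraries in 3 groups was read from 1 deposited table of whole-number counts per gene and 1 set of FPKM values beside them. The submitters' processing notes name HISAT2, HTSeq 0.11.2, DESeq2 1.26.0 and GRCh38, with no role or order given. The deposited FPKM equal count per total count and GENCODE 29 exon length for 99.7% of genes (tolerance 0.5 base). Strand use in the counting is not given in the sources used here, so overlapping opposite-strand genes can share counts. The deposited counts were fitted with edgeR 4.0.16 in R 4.3.3 (robust quasi-likelihood test, TMM factors, all 6 libraries, 3 residual degrees of freedom). Genes passed filterByExpr (minimum count 10, minimum total 15), which left 14601, and p-values were Benjamini-Hochberg adjusted over all of these with a threshold of 0.05. SE were derived from each log2 fold change and its F statistic. The scripts were tested on simulated counts, where edgeR recovered 38.5% to 51.8% of 2-fold and 65.3% to 69.4% of 4-fold changes. A gene that did not pass is therefore not shown to be unchanged.

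The replicate numbers come from the letters A and B of the labels. Differences between replicates correlated between groups (Pearson r over 14601 genes 0.40 for control and day 3, 0.35 for control and day 5, 0.42 for day 3 and day 5), so fits with the number as a block are given where they change a call. This block is a term shared by all groups, so it cannot follow genes whose replicates differ in opposite directions in different groups. Replicates differed beyond counting noise (chi-square per degree of freedom 17.4 to 37.7), and none was merged. Alternatives were RLE and upper-quartile factors, other filters, DESeq2 1.42.0, the groups compared alone, each library left out, and limma 3.58.1 on log2(FPKM + 1) or log2(FPKM + 0.1).

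The 10 genes and all lists were chosen with earlier results of these data known. All 10 were named, as were the called genes of each list and up to 3 others with the highest mean CPM. Some listed genes are not reported here, and nearest profiles are given without them.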

Additional observations from a re-analysis of the deposited data

How the results depend on the processing

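With 2 libraries a group, counts of calls depended on the processing. Of the 10 genes, 2 were called at day 3, against 4 with no filter, 0 by limma on log2(FPKM + 1) with no filter, and 1 to 2 when single libraries were left out. At day 5, 4 were called, against 7 with no filter, 2 with only the groups compared, 1 by limma with no filter, and 1 to 3 with a library left out. For day 5 against day 3, 0 were called, against 1 each with no filter, DESeq2 and the replicate block, and 0 to 0 with a library left out. Over all genes, the 1710 calls at day 3 became 2925 with no filter, 4064 with the replicate block, 254 by limma with no filter and 282 to 1906 with a library left out. The 2117 calls at day 5 became 3234 with no filter, 1315 with only the groups compared, 4418 with the replicate block, 605 by limma with no filter and 723 to 1874 with a library left out. The 4 calls of day 5 against day 3 became 599 with no filter, 306 by DESeq2, 1117 with the replicate block, 1 by limma on log2(FPKM + 1), 0 on log2(FPKM + 0.1), 0 by limma with no filter, and 1 to 15 with a library left out. For replicate 2 of the KO-labelled libraries, 2 calls among the 10 genes became 5 and 38 over all genes, all higher, became 442 with no filter, 293 higher and 149 lower. The direction turned in 13 of 480 alternatives for the 10 genes, each with a library left out. The log2 values then ranged, for day 5 against day 3, from -1.03 to 0.19 for DDX58, -0.23 to 0.97 for IFIH1, -1.22 to 0.37 for EIF2AK2, -0.29 to 0.77 for IFI16, -0.023 to 0.18 for IRF3 and -2.36 to 0.34 for IRF7. They ranged from -0.11 to 0.81 for IFI16 at day 3 and from -0.51 to 1.99 for IRF7 at day 5. Of the other alternatives for the 10 genes, 427 kept direction and side of the threshold, 24 lost and 16 gained a call. For the 23 calls of pathway genes, 243 kept both and 125 lost the call. Of these 23 calls, 9 were lost by limma on log2(FPKM + 1), 8 on log2(FPKM + 0.1) and 22 by limma with no filter. With only the groups compared 7 were lost, and with no filter in edgeR 4. Uncalled pathway genes were left out of this tally, so calls that they gained, as with the replicate block, are not in it. Another scaling moved the median of all genes by at most 0.023 on the log2 scale. The cause of these differences was not tested.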
